A study of Mus musculus with 12 samples.

Results

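The 10 genes described here are imprinted genes that act on growth or metabolism in the mouse: Igf2, Igf2r, Grb10, Cdkn1c, Plagl1, Gnas, Nnat, Mest, Peg10 and Sgce. They were taken by symbol from a table of normalized CPM (read counts per M reads of the library, with M for mega) for 32494 genes in 12 RNA sequencing libraries of hypothalamus. All 10 had a row of their own and were among the 15359 genes tested, those with a mean of at least 1 CPM. The libraries came from male mice with floxed Smc3, all of which received tamoxifen, and tissue was taken 5 weeks later. An age of 8 weeks is also labelled, with no step named for it. The 7 libraries labelled WT came from animals without the Camk2a-cre/ERT2 transgene, and the 5 labelled cKO from animals with it. The transgene's Camk2a promoter is active in excitatory neurons of the forebrain, and its recombinase works once tamoxifen is given, so that other cells of the hypothalamus, and neurons that do not use the Camk2a promoter, keep the floxed alleles unrecombined. The study asked what loss of Smc3, a core subunit of the cohesin ring, does in the adult brain and to body weight.

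An imprinted gene is read mainly from the copy of a single parent, because the maternal and paternal copies carry different DNA methylation at a control region. At the Igf2 locus and some others, CTCF and cohesin bind such a control region and hold chromatin loops that help set which copy is used. Imprinted genes as a class are known for their action on fetal growth, and in the adult hypothalamus several of them remain active in neurons that govern feeding, growth hormone release and energy use.

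Library depth was between 17.1 and 24.0 M reads in 11 libraries, and WT 1 had 68.7 M. Smc3, the floxed gene, was at 76.8 to 85.7 CPM in the libraries labelled WT and higher, at 116 to 144 CPM, in those labelled cKO. In limma this was a log2 change of 0.67 with an SE of 0.05 (adjusted p-value 3.06e-05). A level per gene does not say whether the floxed part was read, so it cannot settle whether the labels are right. Every direction below refers to the libraries as labelled, cKO relative to WT. Each of the 14 hypothalamic neuron markers was detected, with a summed level of 570 to 1432 CPM in the WT libraries and 679 to 1424 CPM in the cKO libraries. Markers of thalamic neurons were also present in every library, and all 10 had a fold change below 0 in the limma fit, 5 of them past the threshold. The summed thalamic level was 789 to 1547 CPM in the WT libraries and 516 to 898 CPM in the cKO libraries. In bulk tissue, fewer cells of a type and less RNA per cell cannot be told apart. Nothing in the labels says that the numbered libraries are separate animals, and p-values measure the spread between these libraries.

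Of the 10 imprinted genes, 3 passed an adjusted p-value of 0.05 in the limma fit. Mest and Cdkn1c fell and Sgce rose in the libraries labelled cKO. Over all tested genes, 14.1% passed, with 6.54% higher and 7.6% lower, and without WT 1 the count of these genes went from 2172 to 1158. With each library centred on its median, 56.6% of the calls were higher in place of 46.2%. Mest was the member whose group ranges did not overlap, which was so for 6.73% of tested genes in either direction and, as in Mest, for 3.2% lower in cKO. The other 7 genes did not pass, and 6 of them had a fold change above 0. Left out in turn, WT 1, cKO 8, cKO 9 or cKO 14 each took the count to 1 of 10, which was Mest. Of all tested genes, 1158 of 15328 passed without WT 1 and 1684 of 15366 without cKO 8. The counts were 1502 of 15386 without cKO 9 and 1456 of 15393 without cKO 14. The median log2 fold change of the 10 was 0.02, beside 0.0092 for all tested genes. In the authors' deposited table, Mest and Cdkn1c were the members with a false discovery rate (FDR) under 0.05, which 4.94% of its genes had.

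**Figure D1:**
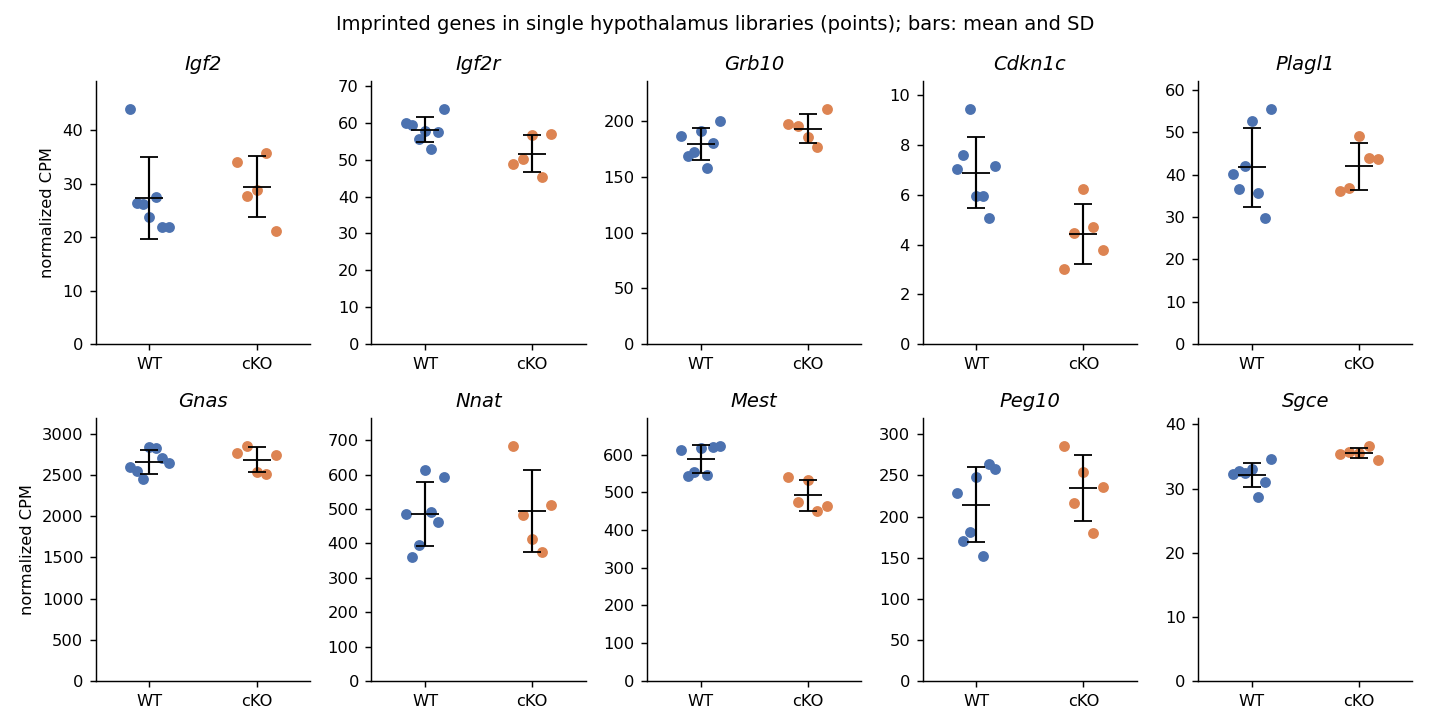
Normalized CPM (vertical axes, starting at 0) of the 10 imprinted genes in each library, with WT (n = 7) in blue and cKO (n = 5) in orange. Horizontal marks are means and bars are SD. Mest has every cKO library below every WT library, and the Igf2 panel has WT 1 at 43.9 CPM, above the others.

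Levels per kilobase of merged exon (GENCODE M21) ranked the genes as follows. In the WT libraries Nnat (266 ± 51.0 CPM per kb, SD, n = 7) and Gnas (238 ± 12.9) were the most abundant per length, and their spreads overlapped. Mest followed at 149 ± 9.51 CPM per kb, and Peg10 at 32.2 ± 6.90 and Grb10 at 19.8 ± 1.58 came next. Igf2r (6.25 ± 0.364), Plagl1 (5.34 ± 1.19) and Igf2 (4.78 ± 1.33) came after them. The spread of Plagl1 took in the means of Igf2r and Igf2, while the mean of Igf2 lay below the spread of Igf2r. Cdkn1c (3.38 ± 0.696) and Sgce (3.02 ± 0.176) were the least abundant of the 10 and did not differ beyond their spread. In the cKO libraries Cdkn1c was at 2.18 ± 0.590 and Sgce at 3.35 ± 0.0759 CPM per kb (SD, n = 5), so that Sgce lay above Cdkn1c there.

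Growth through the insulin-like growth factor (IGF) system involves 3 of the genes, and none of them passed the test. Igf2 encodes the ligand IGF2, read from the paternal copy in most tissues and, in adult brain, made mainly in the choroid plexus and the membranes around the brain. Igf2 was at 21.8 CPM in the lowest WT library, 26.2 at the median and 43.9 in the highest. The cKO libraries had 34.0, 27.7, 28.8, 35.7 and 21.1 CPM. The groups overlapped, and WT 1 stood apart from the other 6 WT libraries, which reached 27.5 CPM. Fitted in limma, the difference was 0.12 in log2 units with an SE of 0.16 (adjusted p-value 0.663) and a 95% interval of -0.23 to 0.46. WT 1 also had the highest score of 11 leptomeningeal markers (mean log2(CPM + 1)), 2.71 against 2.16 to 2.39 in the other WT libraries. The limma estimate for Igf2 was 0.23 without WT 1 (adjusted p-value 0.220), 0.24 with this score as a covariate (0.171) and 0.013 with the score of thalamic markers as a covariate (0.980). The summed level of all 12 leptomeningeal markers was 51.2 to 78.1 CPM in the WT libraries and 46.2 to 71.5 CPM in the cKO libraries, with none of the markers at 0 throughout. Ttr, the most abundant transcript of choroid plexus, was at 3.52 ± 2.54 CPM in WT and 3.39 ± 1.64 CPM in cKO. The part of either tissue in the Igf2 level was not tested.

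Igf2r encodes the receptor that takes up IGF2 for breakdown and carries enzymes to lysosomes, and it is read from the maternal copy in most tissues outside neurons. Its WT libraries had 52.9 CPM at the lowest, 57.8 at the median and 63.7 at the highest. The cKO libraries had 48.8, 50.3, 56.7, 45.4 and 57.1 CPM. In 3 cKO libraries Igf2r lay below every WT library, and the other two fell inside the WT range. For Igf2r the limma estimate was -0.17 in log2 units with an SE of 0.06 (adjusted p-value 0.0748) and a 95% interval of -0.30 to -0.04. It missed the threshold there and passed in DESeq2 on the recovered reads (-0.18, adjusted p-value 0.0395) and in limma without cKO 12 (-0.21, adjusted p-value 0.0461). Grb10 encodes an adaptor that binds the insulin and IGF1 receptors and dampens their signal, read from the paternal copy in neurons and the maternal copy elsewhere. Grb10 ranged from 158 to 200.1 CPM in WT (median 181), and its cKO libraries had 197, 196, 186, 176 and 211 CPM. The groups overlapped, with a limma estimate of 0.10 and an SE of 0.06 (adjusted p-value 0.252) and a 95% interval of -0.02 to 0.23.

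Of 30 listed partners of the IGF and insulin system, 22 were tested and 3 passed (13.6%, near the 14.1% of all tested genes), with 1 higher and 2 lower. Igfbp5, an IGF-binding protein that holds the ligands outside cells, averaged 285 ± 32.3 CPM in WT and fell to 201 ± 24.5 CPM in cKO, and its ranges did not overlap. In limma it changed by -0.50 with an SE of 0.09 (adjusted p-value 0.00478). Gigyf1, which was named for its binding to GRB10, fell from 111 ± 9.47 to 83.7 ± 11.1 CPM without overlap (log2 change -0.40, SE 0.09, limma adjusted p-value 0.0105). Igfbp3 rose from 12.05 ± 1.22 to 14.8 ± 0.789 CPM (0.28, SE 0.07, limma adjusted p-value 0.0205). The receptors did not pass, with Igf1r at -0.18 (limma adjusted p-value 0.139) and Insr at -0.10 (0.173). The median of the 22 was -0.08, with 14 of 22 below 0. Beside the thalamic score Gigyf1 was the gene of the 22 that passed in limma, where 4.21% of all tested genes passed.

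Restraint of the cell cycle is the known role of Cdkn1c and Plagl1, and Cdkn1c was lower in the cKO libraries. Cdkn1c encodes p57, an inhibitor of cyclin-dependent kinases that is read from the maternal copy. It was at 5.08 CPM in the lowest WT library, 7.05 at the median and 9.44 in the highest. In the cKO libraries it was at 3.02, 4.46, 6.25, 4.70 and 3.79 CPM. In 4 of 5 cKO libraries the level lay below every WT library, and the remaining one, cKO 12, lay inside the WT range. The means were 6.89 ± 1.42 (SD, n = 7) and 4.44 ± 1.203 CPM (SD, n = 5), 0.645 of the WT level. Cdkn1c changed by -0.54 in log2 units in limma, with an SE of 0.15 (adjusted p-value 0.0279), and the authors' deposited table gave -0.63 with an FDR of 0.0223. This rested on 64 to 485 reads per library. The limma adjusted p-value was above the threshold without WT 1 (0.0559), cKO 8 (0.0617), cKO 9 (0.0520) or cKO 14 (0.0654), with the fold change between -0.65 and -0.44 over all 12 libraries left out in turn. It was also above the threshold with all genes above 0 tested (-0.54, limma adjusted p-value 0.0628). Once the thalamic score was a covariate, Cdkn1c was at -0.74 (limma adjusted p-value 0.0426).

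Plagl1, a zinc finger factor read from the paternal copy that can stop the cell cycle and is known to act on other imprinted genes, did not pass. It ranged from 29.7 to 55.5 CPM in WT, with a median of 40.2, and was at 36.1, 36.9, 49.2, 44.0 and 43.8 CPM in the cKO libraries. All cKO values lay inside the WT range, and limma gave 0.03 in log2 units with an SE of 0.14 (adjusted p-value 0.918) and a 95% interval of -0.27 to 0.32. The sign turned when the thalamic score was a covariate, to -0.31 (limma adjusted p-value 0.156). Of 20 listed G1 inhibitors and their targets, 17 were tested and 2 passed (11.8%, beside 14.1% of all tested genes), both higher. Ccnd1, a cyclin that drives cells through G1, rose from 30.3 ± 4.38 to 41.5 ± 2.57 CPM, without overlap (limma log2 change 0.45 with SE 0.09, adjusted p-value 0.0101). Cdkn2d, an inhibitor of the kinases that Ccnd1 activates, rose from 44.1 ± 1.58 to 50.6 ± 2.77 CPM (0.19, SE 0.04, limma adjusted p-value 0.0121). In the limma fit with the thalamic score 0 of the 17 passed, beside 4.21% of all tested genes, and 4 of the 17 had an unadjusted p-value under 0.05. The paralogues of Cdkn1c did not pass, with Cdkn1a at 0.03 and Cdkn1b at -0.01. Of 7 other genes of the network around Plagl1, 6 were tested and Meg3, a maternally read noncoding RNA, passed (16.7%, beside 14.1% of all tested genes). Meg3 fell from 3925 ± 550.5 to 2690 ± 342 CPM, without overlap (limma log2 change -0.54, SE 0.11, adjusted p-value 0.00815). H19 was at 0.112 CPM in WT and 0.104 CPM in cKO, close to the level of 3 reads in a library (0.0436 to 0.178 CPM), and was not tested.

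Hormone signalling and energy balance involve Gnas and Nnat, which did not pass. Gnas encodes the stimulatory G protein subunit that couples many hormone receptors, the melanocortin 4 receptor among them, to cAMP. Its locus makes several transcripts with opposite imprints, and the deposited row adds them up. Gnas ranged from 2449 to 2838 CPM in WT (median 2644) and was at 2774, 2856, 2544, 2510 and 2747 CPM in the cKO libraries. The groups overlapped, and limma gave 0.01 in log2 units with an SE of 0.06 (adjusted p-value 0.894) and a 95% interval of -0.10 to 0.13. Nnat encodes a small membrane protein of the endoplasmic reticulum, read from the paternal copy and abundant in hypothalamic neurons. It ranged from 362 to 614 CPM in WT (median 486), and its cKO libraries had 683, 483, 413, 375 and 513 CPM. Here cKO 8 lay above every WT library and the other 4 lay inside the WT range. In limma Nnat changed by 0.01 with an SE of 0.15 (adjusted p-value 0.965) and a 95% interval of -0.31 to 0.34.

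All 29 listed genes of signalling from the stimulatory G protein to cAMP were tested, and 6 passed (20.7%, beside 14.1% of all tested genes), with 5 higher and 1 lower. DESeq2 on the recovered reads called 10, with 6 higher and 4 lower, beside 17.9% of all genes. With all genes above 0 tested, limma called 2, both higher, beside 4.86% of all genes. The cAMP response factor gene Crem rose from 14.04 ± 0.440 to 16.5 ± 0.710 CPM, without overlap (limma log2 change 0.22, SE 0.04, adjusted p-value 0.00936). Prkar1a and Prkar1b, regulatory subunits of protein kinase A, both rose by 0.17 in log2 units (limma, SE 0.04 for both, adjusted p-value 0.0140 for both), also without overlap. The catalytic subunit gene Prkacb rose by 0.20 (SE 0.05, limma adjusted p-value 0.0218). Adcy6, an adenylyl cyclase, fell from 98.5 ± 12.5 to 77.6 ± 9.51 CPM (-0.34, SE 0.10, limma adjusted p-value 0.0324). The sixth was Creb1 (0.13, limma adjusted p-value 0.0364). Single libraries left out ended the calls of Creb1 in 9 of 12 fits, of Adcy6 in 6 (WT 1, WT 6, WT 11, cKO 12, cKO 13 or cKO 14) and of Prkacb in 1 (cKO 14). The median of the 29 was 0.09, with 21 above 0. In the limma fit that included the thalamic score, 0 of the 29 passed, beside 4.21% of all tested genes. The limma p-value before adjustment was under 0.05 for 12 of the 29 in that fit. How many of all tested genes had such a p-value is not given here.

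Mest was lower in every cKO library than in any WT library. It encodes a paternally read enzyme of the alpha/beta hydrolase family that is studied for its links to fat cell size and maternal behaviour. Mest was at 544 CPM in the lowest WT library, 611 at the median and 623 in the highest. The cKO libraries had 539, 474, 533, 451 and 464 CPM. All 5 lay below all 7 WT libraries, and the highest of them, cKO 8, was 539 CPM against 544 CPM in the nearest WT library. The means were 588 ± 37.5 (SD, n = 7) and 492 ± 41.0 CPM (SD, n = 5), 16.3% lower. In log2 units the limma estimate for Mest was -0.26 with an SE of 0.06 (adjusted p-value 0.0143) and a 95% interval of -0.38 to -0.13, and the authors' deposited table gave -0.26 with an FDR of 0.00717. In each of the 10 other settings tried and with each library left out, Mest passed the threshold, and beside the thalamic score it was at -0.35 (limma adjusted p-value 0.0203).

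RefSeq (GRCm38.p6) gives Mest starts 4544 bases apart, with another start 3 bases from the second, and the deposited row adds up all of them. The 250 bases before each of the 2 main starts are shown because Mest is the gene of the 10 that separated the groups. They lie at chr6:30733256-30733505 and chr6:30737800-30738049, both on the plus strand, and capitals mark CpG dinucleotides, the sites of DNA methylation.
Mest first start: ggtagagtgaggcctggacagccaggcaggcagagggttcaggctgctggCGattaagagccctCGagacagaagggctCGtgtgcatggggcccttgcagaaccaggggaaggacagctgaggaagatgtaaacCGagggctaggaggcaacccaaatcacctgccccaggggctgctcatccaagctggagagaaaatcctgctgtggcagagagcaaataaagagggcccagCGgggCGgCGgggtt
Mest second start: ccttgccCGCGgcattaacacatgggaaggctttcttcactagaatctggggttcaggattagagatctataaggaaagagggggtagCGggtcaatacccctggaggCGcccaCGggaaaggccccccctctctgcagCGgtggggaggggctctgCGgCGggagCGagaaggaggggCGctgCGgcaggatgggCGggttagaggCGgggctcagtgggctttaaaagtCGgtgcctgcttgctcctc
The first stretch holds 7 CpG and the second 14. With the 50 bases after the start included, the counts were 8 and 17, and 48.7% and 31.4% of all 32851 RefSeq windows of 300 bases hold at least as many. Each of these windows held 1 GC box (GGGCGG, either strand, overlaps counted), which 35.7% of all windows hold. Neither held the CTCF core letters GGNGGCAG on either strand, which 12.6% of all windows hold. Windows were found for 7 of the 10 genes: Igf2, Igf2r, Grb10, Plagl1, Gnas, Nnat and Mest. The first Grb10 window had 45 CpG, a Gnas window 40 and that of Igf2r 34, counts that 1.93%, 3.91% and 7.73% of all windows reach. Of the windows of Igf2, Grb10 and Gnas, 1 each held the CTCF core letters. Methylation was not measured, and expression per gene does not say which start was used.

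Peg10 and Sgce start next to each other, in opposite directions, from a shared paternally read control region. Peg10, derived from a retrotransposon and needed for the placenta, ranged from 151 to 264 CPM in WT (median 229). Its cKO libraries had 286, 217, 254, 179 and 236 CPM. The groups overlapped, and limma gave Peg10 a log2 change of 0.14 with an SE of 0.15 (adjusted p-value 0.566) and a 95% interval of -0.18 to 0.46. Sgce encodes epsilon-sarcoglycan, a membrane protein whose loss causes myoclonus dystonia. It ranged from 28.6 to 34.7 CPM in WT (median 32.4) and was at 35.5, 35.6, 35.6, 36.7 and 34.4 CPM in cKO. In 4 of 5 cKO libraries Sgce lay above every WT library, and cKO 14 lay below WT 15 alone. The means were 32.1 ± 1.87 (SD, n = 7) and 35.5 ± 0.805 CPM (SD, n = 5), 1.11 times the WT level.

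Sgce changed by 0.14 in log2 units in limma, with an SE of 0.05 (adjusted p-value 0.0476), close to the threshold, and the authors' deposited table gave 0.15 with an FDR of 0.194. The call was lost with 11 of the 12 libraries left out in turn and kept without WT 15, with adjusted p-values of 0.0325 to 0.0902. Beside the thalamic score the estimate for Sgce was 0.0748 (limma adjusted p-value 0.433). Of 14 listed genes of the sarcoglycan and dystroglycan complex, 12 were tested and 2 passed (16.7%, beside 14.1% of all tested genes), Sntb1 among them. The count was 1 without WT 1, WT 4, WT 11, WT 15, cKO 8, cKO 9, cKO 12 or cKO 14. Sntb1, a syntrophin, fell from 17.2 ± 4.11 to 11.04 ± 1.94 CPM, without overlap (limma log2 change -0.58, SE 0.14, adjusted p-value 0.0190). The Sntb1 call was kept with each library left out and lost beside the thalamic score. In that limma fit 0 of the 12 passed, where 4.21% of all tested genes did, and 1 of the 12 had an unadjusted p-value under 0.05. The sarcoglycans Sgcb (0.04) and Sgcd (-0.20) did not pass. Among 11 paralogues of the imprinted genes, 10 were tested (10% passed, beside 14.1% of all tested genes) and Rtl1, a retrotransposon-derived gene like Peg10, passed, falling from 331 ± 43.7 to 250.1 ± 40.9 CPM (limma log2 change -0.41, SE 0.11, adjusted p-value 0.0282). That call was lost without WT 1, WT 6, WT 11, cKO 9, cKO 12 or cKO 14, with all genes above 0 tested and beside the thalamic score.

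**Figure D2:**
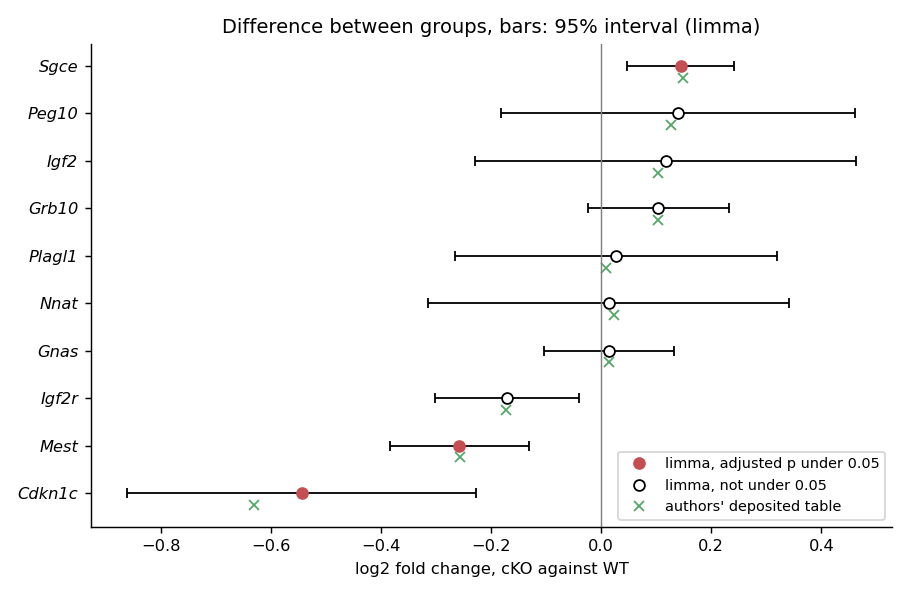
Log2 fold change of the 10 imprinted genes, cKO against WT (horizontal axis), from limma with 95% intervals (circles, filled in red where the adjusted p-value is under 0.05) and from the authors' deposited table (crosses). Cdkn1c, Mest and Sgce are filled, at -0.54, -0.26 and 0.14.

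Over all partner lists, each gene taken once, 89 of 103 genes were tested and 15 passed (16.9%), beside 14.1% of all tested genes. There were 9 higher and 6 lower, and the median log2 fold change was 0.0071. When limma was fitted beside the thalamic score, 2 of the 89 passed, both lower, where 4.21% of all tested genes passed.

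**Figure D3:**
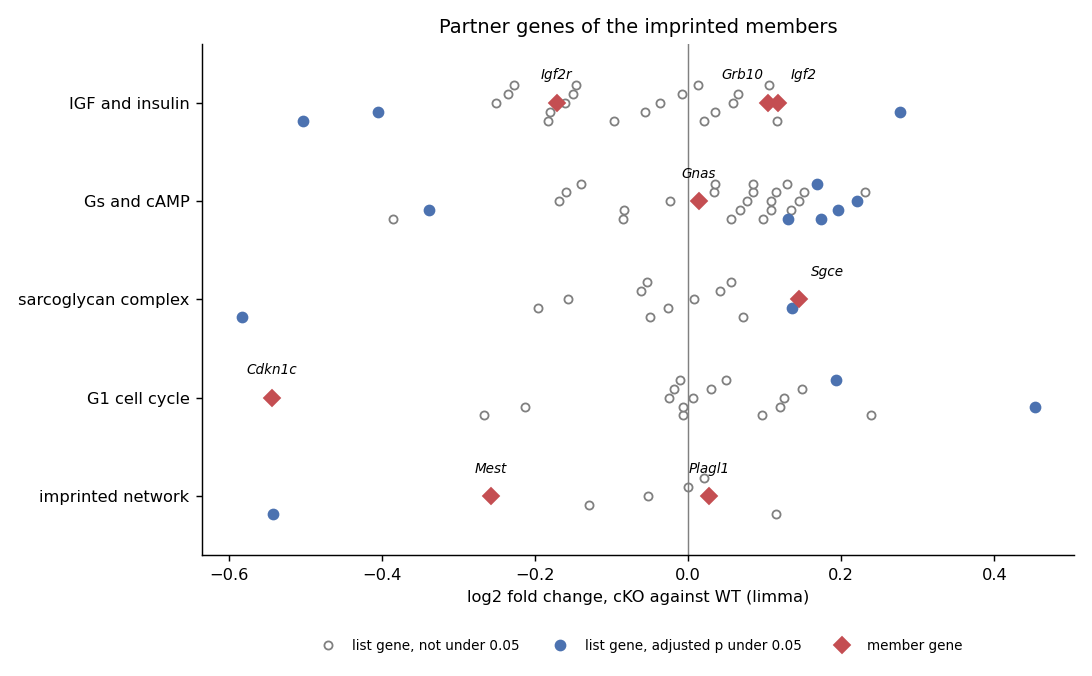
Log2 fold change, cKO against WT (limma, horizontal axis), of tested partner genes (circles, filled in blue where the adjusted p-value is under 0.05) beside the imprinted genes they belong with (red diamonds). Of the cAMP genes 5 of the 6 filled circles lie above 0, and Igfbp5 and Gigyf1 are the 2 filled circles below 0 among the IGF genes.

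Genes that lie near the imprinted genes were examined because an imprinted control region can act on a whole neighbourhood. Within 1000 kb of a member (RefSeq order, GRCm38.p6), 98 neighbours had a row and 71 were tested, of which 8 passed (11.3%, beside 14.1% of all tested genes). There were 7 higher and 1 lower, and 51 of 71 had a fold change above 0. The median of the 71 was 0.07, beside 0.0092 for all tested genes. None of the tested neighbours of Igf2r, Grb10 or Nnat passed. Near Mest, which fell, Tmem209 rose from 30.6 ± 1.93 to 36.2 ± 2.38 CPM (limma log2 change 0.24, SE 0.05, adjusted p-value 0.0144), and 8 of 9 tested neighbours were above 0. Copg2, which overlaps Mest on the other strand, was at 0.03 (limma adjusted p-value 0.736). Reads of the pair cannot be told apart without strand, and the strand setting is not given in the sources used here.

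Near Cdkn1c, the neighbour that passed was Osbpl5, an oxysterol-binding protein gene, which fell from 50.03 ± 3.49 to 41.9 ± 4.21 CPM (limma log2 change -0.25, SE 0.06, adjusted p-value 0.0229). Kcnq1ot1, the noncoding RNA that silences Cdkn1c on the paternal copy, was at 36.8 ± 5.11 CPM in WT and 33.8 ± 5.86 CPM in cKO (-0.13, limma adjusted p-value 0.470). Near Peg10 and Sgce, 10 of 11 tested neighbours were above 0, and Casd1 (0.19, limma adjusted p-value 0.0310) and Dync1i1 (0.17, limma adjusted p-value 0.0189) rose without overlap. The median of these 11 was 0.17, beside Sgce at 0.14 and Peg10 at 0.14. Near Gnas, Prelid3b rose from 46.6 ± 1.33 to 54.9 ± 2.84 CPM without overlap (0.23, SE 0.04, limma adjusted p-value 0.00432), and Atp5e rose by 0.21 (limma adjusted p-value 0.0296). Near Plagl1, Fuca2 rose by 0.22 (limma adjusted p-value 0.0214) and Aig1 by 0.16 (limma adjusted p-value 0.0427). The Aig1 call was kept without WT 7, WT 11 or cKO 12 and lost with each of the other 9 libraries left out, with quantile normalization, with all genes above 0 tested and beside the leptomeningeal or thalamic score. Single libraries also ended the calls of Atp5e (WT 1, WT 11, cKO 8, cKO 9 or cKO 13), Casd1 (WT 1, cKO 8 or cKO 14) and Osbpl5 (cKO 9). Blcap, which lies around Nnat, was at -0.04 (limma adjusted p-value 0.673). Airn, the noncoding RNA that silences Igf2r, was at 1.02 ± 0.237 CPM in WT and 0.943 ± 0.290 CPM in cKO and was not tested. When limma was fitted beside the thalamic score, 1 of the 71 neighbours passed, beside 4.21% of all tested genes. Without WT 1 or without cKO 8, 5 neighbours passed, beside 7.55% and 11% of all tested genes.

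**Figure D4:**
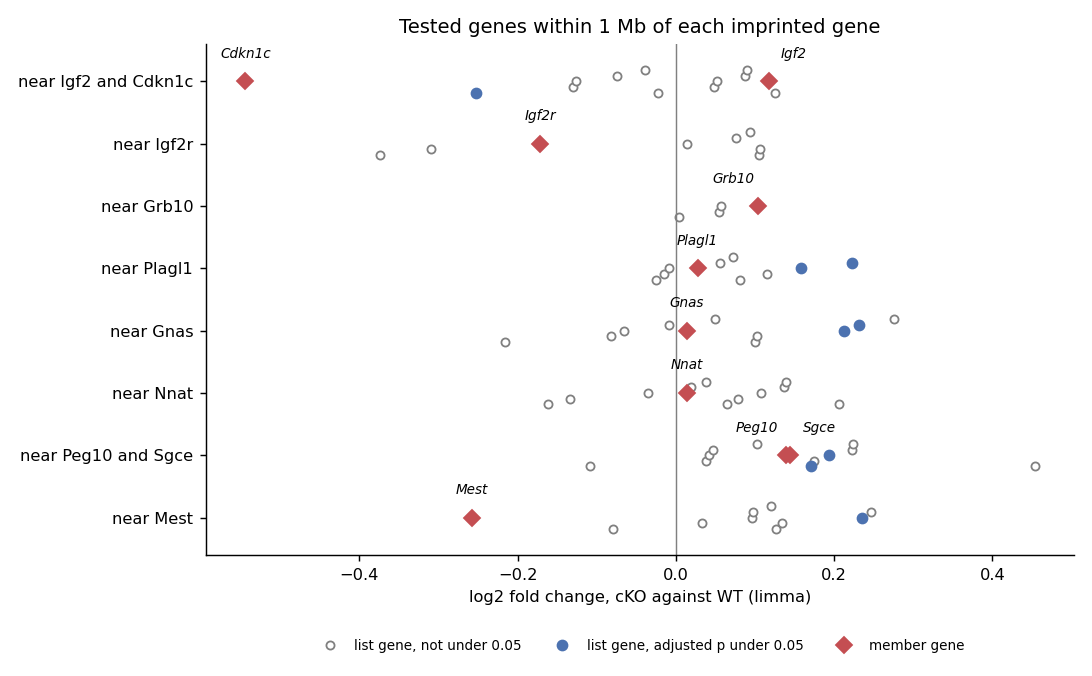
Log2 fold change, cKO against WT (limma, horizontal axis), of tested genes within 1000 kb of each imprinted gene (circles, filled in blue where the adjusted p-value is under 0.05), with the imprinted genes as red diamonds. Mest lies at -0.26 while 8 of its 9 tested neighbours lie above 0.

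How the imprinted genes varied between libraries was examined after the group means were taken away, on log2(CPM + 1), over all 45 pairs and 12 libraries. In the pair Peg10 and Mest both the Pearson (p = 0.00012, adjusted 0.0054) and the Spearman test (p = 8e-05, adjusted 0.0036) passed after adjustment, by 100000 permutations within groups. No other pair passed. Mest values, however, fell into 2 sets of 6 libraries around their group means, 0.06 to 0.14 above and 0.05 to 0.12 below, so no pooled coefficient is given for that pair. The upper set was WT 1, WT 6, WT 11, WT 15, cKO 8 and cKO 12, and all 6 were also above their group mean in Peg10. Within the upper set r was 0.18 and within the lower set 0.72. Peg10 and its neighbour Sgce showed r = 0.36 (permutation p = 0.341) and rho = -0.03 (p = 0.942).

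Relations of the 10 genes to 12 marker scores were computed in the same way, 120 in all. Of these, 6 passed after adjustment by Pearson r, and 3 of the 6 by Spearman rho as well. By Pearson r alone, Peg10 with general neuronal markers passed (r = -0.86, permutation test, adjusted p = 0.0247). So did Nnat with endothelial markers (r = -0.86, adjusted 0.0247) and Gnas with oligodendrocyte markers (r = -0.87, adjusted 0.0314). The 3 that passed by both measures follow. Grb10 was lower in libraries with a higher score of general neuronal markers (r = -0.91, rho = -0.96), with a permutation p of 1e-05 for each, the smallest that 100000 permutations can give, and an adjusted p of 0.0012. Without WT 7 and cKO 14, the libraries farthest from the median of Grb10, r was -0.91. That check kept cKO 13, whose neuronal score of 9.36 stood apart from the 9.20 to 9.23 of the other cKO libraries. In the WT libraries alone, where the score ranged from 9.10 to 9.27, r was -0.99. Nnat was higher in libraries with a higher score of hypothalamic neurons (r = 0.87, permutation p = 0.00095, adjusted 0.0247, and rho = 0.90, p = 0.00063, adjusted 0.0252). Without WT 4 and cKO 8, r was 0.93. With the general neuronal score, however, Nnat had r = -0.68 (permutation p = 0.0262, adjusted 0.125) and rho = -0.77 (p = 0.00784, adjusted 0.0948). Nnat was lower where oligodendrocyte markers were higher (r = -0.90, rho = -0.92, permutation p = 0.00029 and adjusted 0.0174 for each), and r was -0.90 without WT 4 and cKO 8. The scores of hypothalamic neurons and oligodendrocytes ranged widely between libraries of a group, from 2.98 to 5.43 and from 8.02 to 9.26 in WT. Neither differed between the groups by an exact permutation test (p = 0.528 and 0.807), and their part in the level of Nnat was not tested.

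Igf2 and the leptomeningeal score had r = 0.76 (permutation p = 0.0149, adjusted 0.0911) and rho = 0.62 (p = 0.0489, adjusted 0.188). Without WT 1 and cKO 13, r was 0.41, so the relation rested on those libraries. Of all tested genes, the pair most like Igf2 over the 12 libraries were Slc6a13 (r = 0.89) and Aldh1a2 (r = 0.83), both of which are in the leptomeningeal list. The same measure put Wdr93 and Gm5174 (0.97 for both) nearest to Peg10, and Nek11 and Cfap44 nearest to Mest, with no coefficient given because of the 2 sets of Mest values. Usp25 and St3gal6 (0.98 for both) were nearest to Cdkn1c, and Pgrmc1 and Got1l1 (0.98 for both) to Nnat. Herc2 (0.96) and Lrp6 (0.93) were nearest to Igf2r, and Cnr1 and Anapc1 (0.95 for both) to Grb10. For Plagl1 they were Serpina3n (0.94) and Syt6 (0.93), for Gnas Ssbp3 and Kcnmb4os2 (0.95 for both), and for Sgce Gpr75 (0.89) and Cutc (0.88). These are descriptions of likeness over the same 12 libraries.

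**Figure D5:**
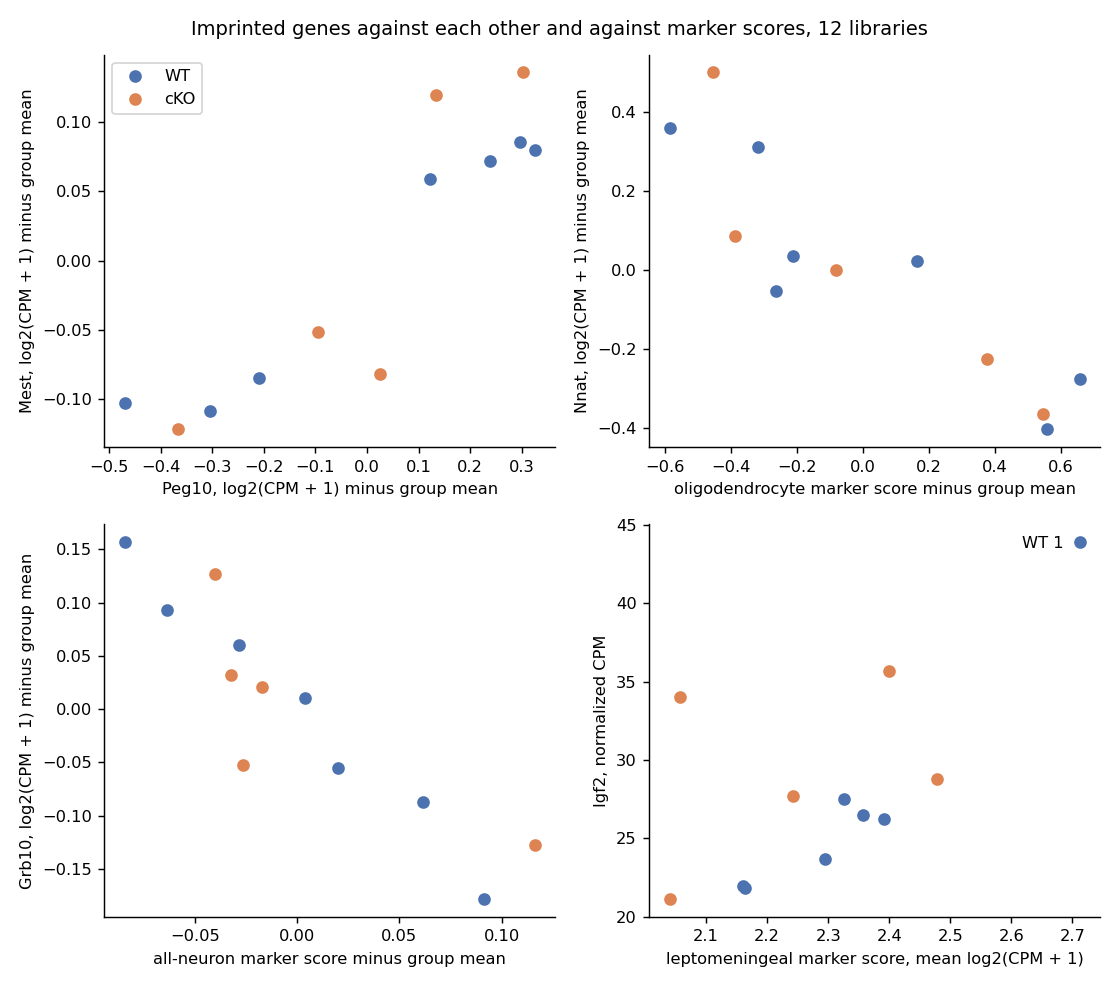
Each point is 1 of 12 libraries, WT in blue and cKO in orange. The panel with WT 1 marked plots Igf2 in CPM against the leptomeningeal score, and WT 1 lies at 43.9 CPM. The other panels plot log2(CPM + 1) minus the group mean, for Mest against Peg10, for Nnat against the oligodendrocyte marker score and for Grb10 against the general neuronal score.

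Among the 12 marker scores, that of thalamic neurons was lower in the cKO libraries, at 5.72 ± 0.354 (SD, n = 5) against 6.33 ± 0.387 (SD, n = 7). Its exact permutation p-value was 0.0177 (two-sided) and 0.212 after adjustment over the 12 lists, and no other score had an unadjusted p-value under 0.05 in this setting. None of the thalamic markers was at 0 throughout. The pituitary score came next, at 1.62 ± 0.356 in cKO against 1.29 ± 0.147 in WT (exact permutation p = 0.0530, adjusted 0.253). Its p-value was 0.0316 with all listed markers used (adjusted 0.189) and 0.0492 with median centring (adjusted 0.185), where that of microglia was 0.0455 (adjusted 0.185). The 8 pituitary markers summed to 3.76 to 6.61 CPM in WT and 4.43 to 15.3 CPM in cKO, and none was at 0 throughout. In limma 0 of the 3 tested passed. Beside the thalamic score 1 of the 3 passed, higher in cKO, where 4.21% of all tested genes passed. Gh, the growth hormone gene, was at 1.27 ± 0.964 CPM in WT and 4.92 ± 3.82 CPM in cKO (limma adjusted p-value 0.112). The authors' deposited table gave Gh a log2 fold change of 1.95 (FDR 0.0428) and Prl, the prolactin gene, 2.40 (FDR 0.0259). Of the 3 pituitary markers tested in limma, 1 had a fold change above 0 and 2 below, with a median of -0.05. The part of pituitary RNA in the levels of the imprinted genes was not tested. Within groups, no imprinted gene was related to the thalamic score after adjustment. The lowest p-value was that of Plagl1 (r = -0.77, permutation p = 0.00675, adjusted 0.0736, and rho = -0.64, p = 0.0405, adjusted 0.162), and r was -0.58 without WT 11 and WT 15. When limma was fitted beside the thalamic score, Mest and Cdkn1c were still past the threshold and Sgce was not, at the values given with each gene.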

How the data were processed

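Messenger RNA was sequenced from the hypothalamus, and libraries were grouped as WT (n = 7) or cKO (n = 5) from their titles. The word control, found in all 12 titles, did not enter the grouping. The authors deposited normalized CPM values and, in a second table, their test results: log2 fold changes, a log2 mean CPM, p-values and FDR. The submitters' processing notes name bcl2fastq, FastQC (0.11.9), STAR (2.7.9a), SAMtools, Subread and featureCounts. The genome build, annotation and strand setting are not given in the sources used here. The deposited CPM values were whole multiples of a step per library for 100% of values (within 0.01 of a whole read), so whole reads were recovered. A level of 3 reads was 0.0436 (WT 1) to 0.178 CPM (cKO 14), which covers counting error only. There were 0 unused library columns.

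The main test was limma (3.58.1, R 4.3.3, eBayes with trend) applied to log2(CPM + 1) for 15359 genes (mean at or above 1 CPM) and no covariate, with Benjamini-Hochberg adjustment over all of them. Fold changes on this scale understate changes of low genes. Alternatives were DESeq2 (1.42.0) and the edgeR quasi-likelihood test (4.0.16), both on recovered reads, quantile normalization, median centring, all genes above 0 or a minimum of 5 CPM, 0.1 as pseudocount, marker scores as covariates, and leaving out each library. Marker scores were compared with two-sided exact permutation tests (792 splits), whose smallest p-value is 0.00126. The limma step was tested on simulated data.

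Named genes were the 10 members, Smc3, up to 5 genes past the threshold per list, and the 2 genes most like each member. Creb1, as a sixth gene of its list, and other list genes that did not pass were named after their values were seen, and so were the relations to marker scores and the 2 sets of Mest libraries. The members and all lists were chosen with earlier results of these data known. Of 107 listed neighbours, 102 had a place in the RefSeq table within 1000 kb of their imprinted gene, and the others were left out. In the list of the sarcoglycan and dystroglycan complex, 1 result is not reported here.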

Additional observations from a re-analysis of the deposited data

Results flagged for a closer look

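Among 48 groups of values examined (each imprinted gene, Smc3, each marker score and depth, in WT and in cKO), 4 held a library far from the rest, where chance gives about 2.4. Igf2 was at 43.9 CPM in WT 1, and the other 6 WT libraries lay between 21.8 and 27.5 CPM. The leptomeningeal marker score was 2.71 in WT 1, against 2.16 to 2.39 in the other WT libraries. Depth was 68.7 M reads (M for mega) in WT 1, against 20.3 to 24.0 M in the other WT libraries. The score of general neuronal markers was 9.36 in cKO 13, against 9.20 to 9.23 in the other cKO libraries.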

How the results depend on the processing

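No paired analysis was possible because WT and cKO libraries share no number in their titles. The log2 fold change of Mest passed in all 10 alternatives, 8 of them in limma and the others in edgeR and DESeq2 (-0.36 to -0.24) and with each library left out (-0.29 to -0.23), and Smc3 passed in all of them (0.65 to 0.74, and 0.64 to 0.71). With all genes above 0 tested in limma, 4.86% of them passed, as did 1 of the 10 imprinted genes and 9 of 102 partner genes. In that setting Cdkn1c was at -0.54 (limma adjusted p-value 0.0628) and Sgce at 0.14 (0.0693). DESeq2 called 4 of the 10, beside 17.9% of all tested genes, with Igf2r at -0.18 (adjusted p-value 0.0395), and put Plagl1 at -0.0019. With the leptomeningeal score as a covariate, Sgce was at 0.15 (limma adjusted p-value 0.0650), Igf2 at 0.24 (0.171), Gnas at -0.0079 and Nnat at -0.068. Quantile normalization put Nnat at -0.0097. With the thalamic score, 646 genes passed (218 higher and 428 lower), 2 partner genes and 1 neighbour, with Sgce at 0.075 (limma adjusted p-value 0.433), Plagl1 at -0.31, Nnat at -0.13 and Peg10 at -0.060. With the thalamic and hypothalamic scores together, 1449 of the 15359 tested genes passed, among them 6 of 89 partner genes and 4 of 71 neighbours. Sgce was then at 0.077 (limma adjusted p-value 0.398), Plagl1 at -0.32, Nnat at -0.20 and Peg10 at -0.10. What caused these shifts was not tested, and the cause was not tested in the fits below either.

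Left out in turn, single libraries gave 1158 (without WT 1) to 2302 genes past the threshold, 1 to 3 of the 10 imprinted genes, 11 to 17 partner genes and 5 (without WT 1 or cKO 8) to 11 neighbours. The log2 fold changes ranged from -0.21 to -0.13 for Igf2r, -0.65 to -0.44 for Cdkn1c, 0.12 to 0.16 for Sgce, 0.04 to 0.23 for Igf2, 0.07 to 0.14 for Grb10 and 0.06 to 0.23 for Peg10. Signs turned for Plagl1 (-0.048 to 0.099), Gnas (-0.0087 to 0.038), Nnat (-0.11 to 0.10) and the oligodendrocyte score (-0.072 to 0.18), none of which passed. Median centring gave 2431 genes, 1377 of them higher (56.6%), where the main setting gave 46.2%. With whole reads, 2209 genes passed in edgeR and 2747 in DESeq2. Cdkn1c had the fewest reads of the 10 imprinted genes, 64 to 485 per library.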
